A study of Mus musculus with 16 samples.

Results

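The genes described here are the bone morphogenetic protein (BMP) and activin ligands Bmp2, Bmp4, Bmp6, Inhba and Inhbb and the secreted proteins Fst, Fstl1, Fstl3 and Grem1, most of them antagonists of these ligands. They were measured in fibro/adipogenic progenitors (FAPs), the mesenchymal cells of skeletal muscle that can become fibroblasts or adipocytes. Members were all probes of the deposited array table whose annotated symbol is one of these 9 genes. There were 8 such probes, 1 per gene, among 25697 probes in all, and no probe was named Fstl3, so that gene is not analysed here. The cells were isolated from muscle of Balb/cJ mice and plated. Each of 4 groups had 4 Illumina bead arrays, which the series calls biological replicates: cells lacking the interleukin-4 receptor alpha chain (IL4RA -/-, called knockout below) with recombinant IL4 (KO IL-4) or vehicle (KO vehicle), and wild-type cells with recombinant IL4 (WT IL-4) or vehicle (WT vehicle). The sources used here do not state the dose or duration of IL-4, the sex or age of the mice, or whether 1 mouse gave cells to several arrays.

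BMPs and activins are secreted dimers of the transforming growth factor beta superfamily. They bind pairs of type I and type II receptor kinases, and BMPs then act mainly through Smad1, Smad5 and Smad9 while activins act mainly through Smad2 and Smad3. Antagonists such as follistatin and gremlin bind the ligands outside the cell and keep them from their receptors. In skeletal muscle, activins and myostatin restrain muscle mass and follistatin opposes them, and BMP signalling is known to act on muscle progenitors and on the bone- and fat-forming potential of mesenchymal cells.

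All values are deposited intensities on a scale read as log2, the same distribution on every array, with a lowest value of 7.72 and a median of 7.85. A probe is called near the minimum below when its mean stayed within 0.15 of 7.72 in all 4 groups. That held for 13810 of 25697 probes and for 2 of the 8 members, Bmp2 and Bmp6, and differences of such probes are compressed. The deleted gene itself, Il4ra, had no named probe, and its level therefore gives no check of the genotypes. Of 9 measured FAP markers all lay above the minimum margin, with the FAP marker Pdgfra at group means of 10.10 to 10.87. Near the minimum were 3 of 6 myogenic genes (Myod1, Myf5 and Pax7) and 3 of 6 leukocyte genes (Ptprc, Adgre1 and Itgam). So were 4 of 6 endothelial genes (Pecam1, Cdh5, Emcn and Vwf). The other genes of these lists lay above the margin, among them Lyz2 at group means of 8.52 to 9.81 and Tek at 8.11 to 8.37. Of 6 pericyte and smooth muscle genes 2 were near the minimum, while Acta2 stood at 13.51 to 13.91. KO vehicle arrays 2 and 3 lay apart on the third principal component, at -6.95 and -7.52, against 0.06 and 3.68 for the other 2 arrays of that group. Beside several results the value without both of them is given as well.

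The first comparison asked what IL-4 did to these genes in wild-type FAPs. Bmp4 and Fst fell clearly with IL-4, Inhba fell slightly, and no member passed as higher. Thus 3 of 8 members passed an adjusted p of 0.05 in limma, all 3 lower, where 13.7% of all probes passed and 7.32% passed as lower. The same 3 were the members whose WT IL-4 and WT vehicle arrays did not overlap, against 16.3% of all probes. Unadjusted, 5 members had a limma p under 0.05, as did 22.3% of all probes. Beside those 3 they were Fstl1 and Inhbb, both with positive differences. The median log2 difference of the 8 members was -0.03, against -0.00077 over all probes. In bulk cultures such as these, fewer cells of a type and less RNA per cell cannot be told apart.

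**Figure D1:**
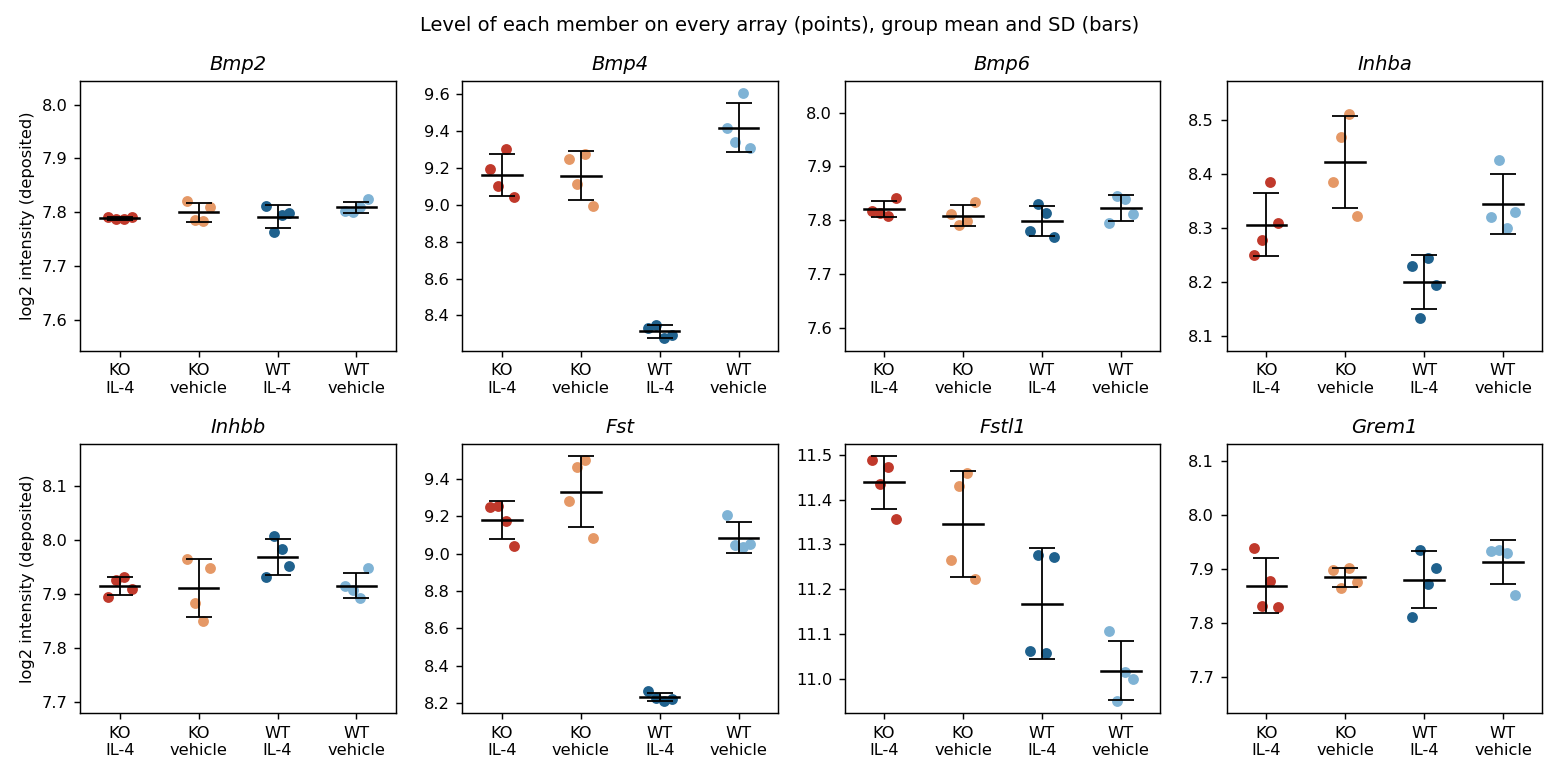
Level of each of the 8 measured members on every array, as deposited log2 intensity, in KO IL-4, KO vehicle, WT IL-4 and WT vehicle cells (points, 4 arrays per group), with the group mean and SD (bars). Each panel has its own vertical scale, since probes of different genes cannot be compared in level. Bmp4 and Fst stand low in WT IL-4 cells only, at group means of 8.31 and 8.23.

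Among the BMP ligands, Bmp4 had the largest change. It encodes a ligand known for bone formation, for patterning in the embryo and for committing mesenchymal cells towards fat. Its level was 8.33, 8.35, 8.28 and 8.29 on the WT IL-4 arrays, against 9.42, 9.34, 9.60 and 9.31 on the WT vehicle arrays. Every IL-4 array lay far below every vehicle array. The means were 8.31 ± 0.04 in WT IL-4 and 9.42 ± 0.13 in WT vehicle (SD, n = 4 each), a log2 difference of -1.10 ± 0.07 (SE), or 2.15-fold lower with IL-4 (limma adjusted p = 4.99e-08). It was the 11th most negative log2 difference among the 25697 probes. Bmp2, an osteogenic ligand close to Bmp4 in sequence, lay between 7.76 and 7.81 on WT IL-4 arrays and between 7.80 and 7.82 on WT vehicle arrays. Bmp6, the ligand that induces hepcidin in iron balance, lay between 7.77 and 7.83 and between 7.80 and 7.85 in the same order. Neither passed (limma adjusted p = 0.498 and 0.448), and with both near the minimum a change of a low transcript could have been missed.

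The Bmp4 gene lies at chr14:46383525-46390669 in GRCm38.p6. The promoter sequences of Bmp4 and Inhba, the ligand genes that fell with IL-4, are shown because IL-4 acts through the DNA-binding factor STAT6. Each is the stretch of 250 bases before the RefSeq start site, read along the gene's strand from 5′ to 3′, with the last 50 bases before the start in capitals. The Bmp4 stretch is chr14:46390670-46390919, minus strand. The Inhba stretch is chr13:16011601-16011850, plus strand, before a start site that lies inside the annotated extent of the gene. The sequences are those of RefSeq for GRCm38.p6.
Bmp4: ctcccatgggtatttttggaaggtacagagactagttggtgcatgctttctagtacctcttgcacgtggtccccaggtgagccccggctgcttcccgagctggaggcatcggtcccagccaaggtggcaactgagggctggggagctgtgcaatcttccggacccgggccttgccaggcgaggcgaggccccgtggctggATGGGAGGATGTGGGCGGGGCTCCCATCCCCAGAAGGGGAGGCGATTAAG
Inhba: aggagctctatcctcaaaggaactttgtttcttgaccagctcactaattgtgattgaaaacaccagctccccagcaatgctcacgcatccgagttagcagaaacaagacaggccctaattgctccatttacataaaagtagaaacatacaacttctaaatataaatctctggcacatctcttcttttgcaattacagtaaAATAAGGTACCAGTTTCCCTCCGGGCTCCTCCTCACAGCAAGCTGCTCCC
A promoter was given for 7 of the 9 genes, and Bmp2 and Fst were without an entry. In a window of 300 bases, from 250 before to 50 after the start, TTC and GAA with 4 bases between them, the form preferred by STAT6, was matched in 0 of the 7 and in 6.95% of all 32851 promoters. TTC and GAA with 3 bases between them, a form bound by other STAT factors, was matched in 0 of the 7 and in 8.3% of all promoters. GGCGCC, a GC-rich element of BMP-responsive genes, was matched in Grem1 alone, beginning 78 bases before its start site, and in 11.9% of all promoters. All 3 motifs read the same on both strands and do not contain one another. A missing match says only that these letters are not in this window.

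Among the activin subunits, Inhba encodes the βA chain that forms activin A, and forms inhibin A with the alpha chain. The gene lies at chr13:16004256-16031609. Inhba stood at 8.23, 8.13, 8.24 and 8.19 on the WT IL-4 arrays, against 8.32, 8.43, 8.30 and 8.33 on the WT vehicle arrays. The groups did not overlap, and the gap between them, from 8.24 to 8.30, was small. The means were 8.20 ± 0.05 and 8.34 ± 0.06 (SD, n = 4 each), a log2 difference of -0.14 ± 0.04 (SE, limma adjusted p = 0.0321). This call ended without WT vehicle array 1, 2 or 4 (adjusted p = 0.051, 0.11 and 0.0574). It also ended without WT IL-4 array 6 or 8 (0.109 and 0.0724). The log2 difference in these fits ran from -0.15 to -0.12, so the fall changed little in size while the call did not hold. Inhbb, the βB chain of activin B, lay between 7.93 and 8.01 on WT IL-4 arrays and between 7.89 and 7.95 on WT vehicle arrays. The groups overlapped and the log2 difference was 0.05 ± 0.02 (SE, adjusted p = 0.205).

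Among the antagonists, Fst encodes follistatin, which binds activins and myostatin with high affinity and some BMPs less tightly. The gene lies at chr13:114452262-114458989. Fst stood at 8.27, 8.23, 8.21 and 8.23 on the WT IL-4 arrays, against 9.21, 9.04, 9.04 and 9.05 on the WT vehicle arrays. The IL-4 arrays lay close together and all far below the vehicle arrays. The means were 8.23 ± 0.02 in WT IL-4 and 9.09 ± 0.08 in WT vehicle (SD, n = 4 each). The log2 difference was -0.85 ± 0.08 (SE), or 1.80-fold lower with IL-4 (limma adjusted p = 1.34e-06), and ranked 41st among the falls of all probes. Grem1, gremlin 1, which binds Bmp2 and Bmp4, lay between 7.81 and 7.94 on WT IL-4 arrays and between 7.85 and 7.93 on WT vehicle arrays (log2 difference -0.03 ± 0.03, SE, adjusted p = 0.631).

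Fstl1 encodes a secreted glycoprotein with a follistatin-like domain that is abundant in mesenchymal cells. The gene lies at chr16:37777055-37836516. It stood at 11.06, 11.28, 11.06 and 11.27 on the WT IL-4 arrays, against 11.11, 10.95, 11.01 and 11.00 on the WT vehicle arrays. Arrays 6 and 8 with IL-4 lay above all vehicle arrays, and arrays 5 and 7 lay within the vehicle range. The log2 difference of 0.15 ± 0.06 (SE) did not pass (limma adjusted p = 0.164). Its 95% confidence interval ran from 0.01 to 0.28.

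Of the 9 FAP markers 3 rose and 2 fell with IL-4 in wild type, and some markers of other cell types passed as well. Over all probes 6.34% passed as higher and 7.32% as lower, so 1 call among 6 markers does not show that a cell type moved. The mean level of 6 adipocyte markers was 8.72 to 8.80 on WT IL-4 arrays and 8.92 to 8.97 on WT vehicle arrays, with 3 of 6 lower and 0 higher. That of 6 macrophage and leukocyte markers was 7.96 to 7.99 and 8.15 to 8.18 in the same order, where 1 passed, the lysozyme gene Lyz2, as lower. Of 6 endothelial and 6 pericyte and smooth muscle markers 1 each was lower, and of 6 myogenic and 3 tenocyte and Schwann cell markers 0 passed. None of the adipocyte markers was near the minimum by the rule used here, but Fabp4, Lep and Retn lay close to it, at group means of 7.81 to 7.91. Cidec stood at 8.07 to 8.34, Plin1 at 8.65 to 9.05 and Adipoq, the gene of adiponectin, at 12.25 to 12.82. The part of these cell types in the results for Bmp4 and Fst was not tested.

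The second comparison asked whether the members respond to IL-4 without the receptor. Neither Bmp4 nor Fst passed in knockout cells, and neither did any other member. In limma 0 of 8 members and 0% of all probes passed. Unadjusted, 1439 probes, or 5.6% of all, and 1 member, Inhba, had a limma p under 0.05. A trended and robust variance model called 1 probe, which was no member. The arrays of 0 of 8 members were without overlap, against 2.81% of all probes. Bmp4 stood at 9.20, 9.10, 9.30 and 9.04 on the KO IL-4 arrays, against 9.25, 9.11, 9.28 and 8.99 on the KO vehicle arrays. The 2 groups spanned nearly the same range. Its log2 difference was 0.0024 ± 0.07 (SE), with a 95% confidence interval from -0.15 to 0.16, and 0.04 without KO vehicle arrays 2 and 3.

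Fst stood at 9.25, 9.25, 9.18 and 9.04 on the KO IL-4 arrays, against 9.28, 9.46, 9.50 and 9.08 on the KO vehicle arrays. The KO vehicle arrays 2 and 3 lay above all others and the groups overlapped. The log2 difference was -0.15 ± 0.08 (SE, limma adjusted p = 0.9), with an interval from -0.31 to 0.01, and it was -0.0022 without KO vehicle arrays 2 and 3. Inhba stood at 8.25, 8.28, 8.39 and 8.31 on the KO IL-4 arrays, against 8.39, 8.47, 8.51 and 8.32 on the KO vehicle arrays. The IL-4 arrays were mostly lower but overlapped the vehicle arrays. Its log2 difference was -0.12 ± 0.04 (SE, unadjusted p = 0.0154, adjusted p = 0.863), and -0.05 without KO vehicle arrays 2 and 3. Fstl1 stood at 11.49, 11.44, 11.47 and 11.36 on the KO IL-4 arrays, against 11.27, 11.43, 11.46 and 11.22 on the KO vehicle arrays, with a log2 difference of 0.09 ± 0.06 (SE, adjusted p = 0.917). Without KO vehicle arrays 2 and 3 that of Fstl1 was 0.19 ± 0.07 (SE) and did not pass. Bmp2, Bmp6, Inhbb and Grem1 had log2 differences between -0.02 and 0.01 (adjusted p from 0.952 to 0.995), and between -0.04 and -0.0021 without those arrays.

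**Figure D2:**
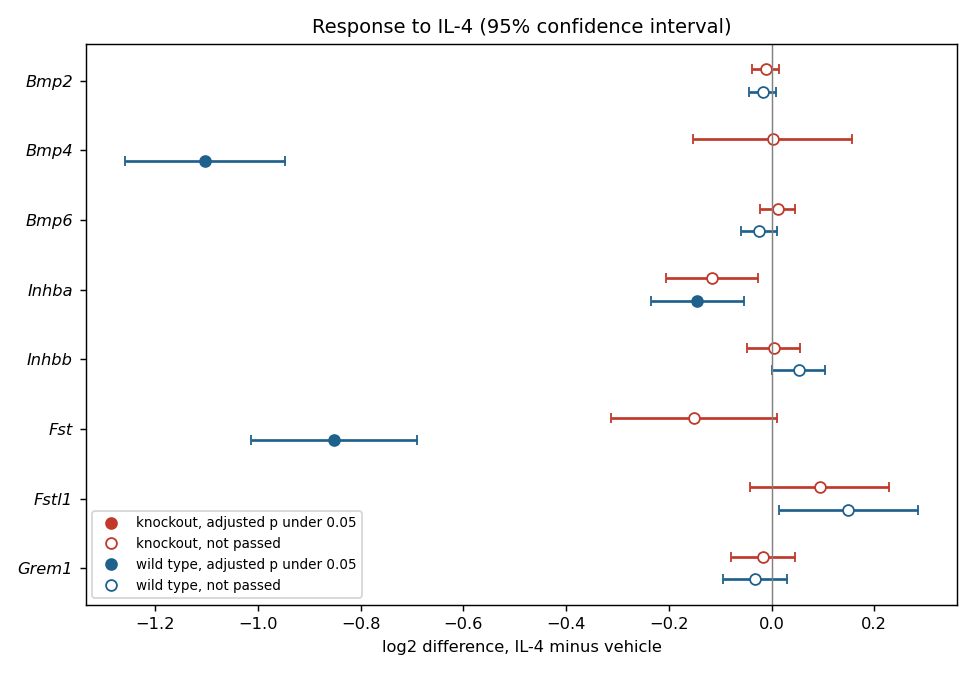
Log2 difference between IL-4 and vehicle for each member in knockout (red) and wild-type cells (blue), with 95% confidence intervals from limma. Filled points passed an adjusted p of 0.05 over all probes. Bmp4 and Fst lie at 0.0024 and -0.15 in the knockout, against -1.10 and -0.85 in wild type, while the intervals of Inhba overlap.

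The difference of the 2 responses was tested as an interaction and is given as wild type minus knockout. It passed for 2 of 8 members, Bmp4 and Fst, both lower, where 8.39% of all probes passed, 4.04% as higher and 4.35% as lower. The Bmp4 response was 0.0024 in the knockout, against -1.10 in wild type, a difference of -1.11 ± 0.10 (SE, limma adjusted p = 4.41e-06). The Fst response was -0.15 in the knockout, against -0.85 in wild type, a difference of -0.70 ± 0.11 (SE, adjusted p = 0.000555). For Inhba the responses were -0.12 in the knockout and -0.14 in wild type. Their difference of -0.03 ± 0.06 (SE, adjusted p = 0.886) had a 95% interval from -0.16 to 0.10. Without KO vehicle arrays 2 and 3 the Inhba response in the knockout was -0.05, and the difference was -0.10 ± 0.06 (SE, adjusted p = 0.452). The test thus shows neither that the responses of Inhba differ nor that they are alike. For the other 5 members the difference lay between -0.04 and 0.06 (adjusted p from 0.484 to 0.921). Without those arrays it lay between -0.04 and 0.09, with the highest value and the smallest adjusted p, 0.0727, for Inhbb.

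Next, the genotypes were compared without added IL-4. Fstl1 was higher in knockout cells and no other member passed, so 1 of 8 members was called, against 2.69% of all probes, 1.18% as higher and 1.5% as lower. Fstl1 averaged 11.35 ± 0.12 in KO vehicle and 11.02 ± 0.07 in WT vehicle (SD, n = 4 each). The log2 difference was 0.33 ± 0.06 (SE), or 1.25-fold higher in the knockout (limma adjusted p = 0.012), and every KO vehicle array lay above every WT vehicle array. Without KO vehicle arrays 2 and 3 it was 0.23 and did not pass (adjusted p = 0.131). The arrays of Bmp4 did not overlap either, as for 8.06% of all probes. Bmp4 averaged 9.16 ± 0.13 in KO vehicle and 9.42 ± 0.13 in WT vehicle, a log2 difference of -0.26 ± 0.07 (SE, adjusted p = 0.0817). It passed once dim probes were left out (adjusted p = 0.0395) and with a trended, robust variance model (0.0153). Without KO vehicle arrays 2 and 3 it was -0.30 and did not pass (0.142). Over 17 alternatives Bmp4 passed in 3, with adjusted p from 0.0153 to 0.196. Fst averaged 9.33 ± 0.19 in KO vehicle and 9.09 ± 0.08 in WT vehicle, a difference of 0.25 ± 0.08 (SE, adjusted p = 0.121). It was called with the trended model (0.0268) and without KO vehicle array 4 (difference 0.33, adjusted p = 0.0118), and fell to 0.10 without KO vehicle arrays 2 and 3 (adjusted p = 0.636). Inhba averaged 8.42 ± 0.09 in KO vehicle and 8.34 ± 0.06 in WT vehicle (adjusted p = 0.472), a difference of 0.08, and of 0.0089 without KO vehicle arrays 2 and 3. Bmp2, Bmp6, Inhbb and Grem1 had differences between -0.03 and -0.0042 (adjusted p from 0.779 to 0.971).

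Under IL-4 the genotypes were compared as well. This comparison shares the WT IL-4 arrays with the wild-type response and is not independent of it. Bmp4, Fst and Fstl1 were higher in the knockout, 3 of 8 members, where 14.9% of all probes passed, 7.7% as higher and 7.2% as lower. Bmp4 averaged 9.16 ± 0.11 in KO IL-4 and 8.31 ± 0.04 in WT IL-4 (SD, n = 4 each), a log2 difference of 0.85 ± 0.07 (SE, limma adjusted p = 7.44e-07). Fst averaged 9.18 ± 0.10 in KO IL-4 and 8.23 ± 0.02 in WT IL-4, a difference of 0.95 ± 0.08 (SE, adjusted p = 3.61e-07). Fstl1 averaged 11.44 ± 0.06 in KO IL-4 and 11.17 ± 0.12 in WT IL-4, a difference of 0.27 ± 0.06 (SE, adjusted p = 0.00743). Unlike the vehicle comparison this one holds no array of the KO vehicle group, and Fstl1 stayed past the threshold in all 15 alternatives run (adjusted p from 0.00335 to 0.0266). Inhba was 0.11 ± 0.04 (SE) higher in the knockout without overlap and did not pass (adjusted p = 0.122). The arrays of 4 of 8 members did not overlap here, against 17.2% of all probes.

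**Figure D3:**
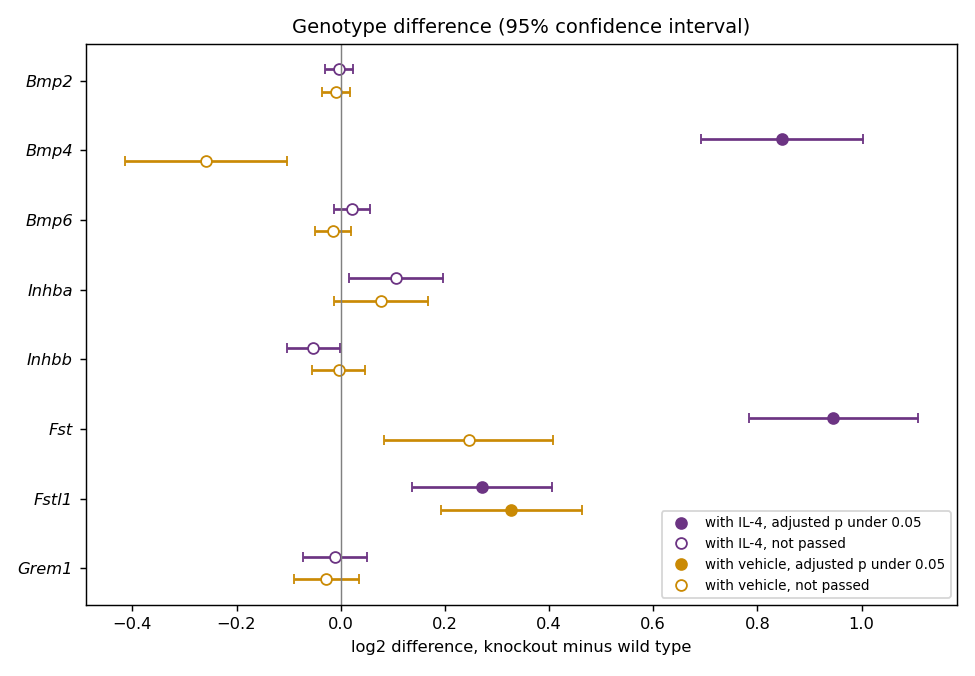
Log2 difference between knockout and wild type for each member with IL-4 (purple) and with vehicle (ochre), with 95% confidence intervals from limma. Filled points passed an adjusted p of 0.05 over all probes. Fstl1 is higher in the knockout in both conditions, by 0.27 with IL-4 and 0.33 with vehicle, whereas Bmp4 lies at 0.85 with IL-4 and -0.26 with vehicle.

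For each member that passed in wild type, the 3 named probes of other genes with the highest Pearson correlation over the 16 arrays were taken. These correlations mostly reflect the 4 group levels and are a description. Bmp4 was most like Arhgap20 (r = 0.98), Fbxw5 (0.969) and Il1rn (0.957), the gene of the interleukin-1 receptor antagonist. Their log2 differences with IL-4 in wild type were -0.22, -0.42 and -0.89. Fst was most like Mdk (0.979), the growth factor midkine, Dio3 (0.974), the deiodinase that inactivates thyroid hormone, and Sphk1 (0.966), a sphingosine kinase, with differences of -1.02, -1.49 and -0.57. Inhba was most like Ttyh3 (0.908), Irs2 (0.875), an adaptor of the insulin receptor, and Kmt5a (0.873), a histone methyltransferase. These 3 differed by -0.08, -0.32 and -0.15 with IL-4 in the knockout, against -0.15, -0.59 and -0.25 in wild type. The 3 probes were chosen for their likeness to Inhba over the same arrays. Their negative values in both genotypes, as for Inhba, largely follow from that choice and are no separate evidence. None passed in the knockout, and Ttyh3 did not pass in wild type either (limma adjusted p = 0.0542).

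The rest of the pathway was taken from 6 lists with 100 genes, of which 87 were measured by their brightest probe and 41 were near the minimum. In wild type 4 of the 87 rose and 10 fell with IL-4, against 6.34% and 7.32% of all probes, with a median log2 difference of -0.01. In the knockout 0 of 87 passed. The interaction passed for 7 of the 87, 3 higher and 4 lower in wild type, a share close to the 8.39% of all probes.

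Extracellular regulators that fell included antagonists beside Fst. Of 17 other antagonists, 10 of them near the minimum, 2 fell and 0 rose, against 7.32% and 6.34% of all probes. The median of the 17 was -0.0014. Bmper, a secreted BMP-binding protein that can restrain or promote BMP signalling, averaged 9.25 ± 0.16 in WT IL-4 and 9.90 ± 0.17 in WT vehicle (SD, n = 4 each), a log2 difference of -0.65 ± 0.14 (SE, limma adjusted p = 0.00544). Nbl1, the BMP antagonist DAN, averaged 9.87 ± 0.08 in WT IL-4 and 10.24 ± 0.12 in WT vehicle, a difference of -0.38 ± 0.08 (SE, adjusted p = 0.00631). The antagonists Nog and Chrd differed by 0.03 and 0.0012 and did not pass (adjusted p = 0.631 and 0.992). Of 22 other ligands, 18 of them near the minimum, 1 rose and 0 fell, against the same shares. The riser was Lefty1, a Nodal antagonist of the same superfamily, by 0.10 ± 0.03 (SE, adjusted p = 0.0209). That call ended without WT vehicle array 1 or 2 or WT IL-4 array 5 (adjusted p from 0.0506 to 0.0678). Mstn, the gene of myostatin, was listed at 7.80 in both WT IL-4 and WT vehicle cells, near the minimum.

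Of 15 receptors and co-receptors, 5 of them near the minimum, 1 rose and 2 fell, against 6.34% and 7.32% of all probes. The median of the 15 was -0.02. Eng, the co-receptor endoglin, averaged 8.89 ± 0.15 in WT IL-4 and 8.51 ± 0.06 in WT vehicle (SD, n = 4 each), a log2 difference of 0.39 ± 0.06 (SE, limma adjusted p = 0.000505). Acvr2b, a type II activin receptor, averaged 8.12 ± 0.03 in WT IL-4 and 8.31 ± 0.04 in WT vehicle, a difference of -0.20 ± 0.03 (adjusted p = 6.33e-05). Rgma, a BMP co-receptor, differed by -0.17 ± 0.04 (adjusted p = 0.0149), a call that ended without WT vehicle array 1 (0.0519). The BMP type I receptor Bmpr1a differed by 0.08 and the type I receptor Acvr1 by -0.15 without passing (adjusted p = 0.181 and 0.187).

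Inside the cell, of 15 Smads and regulators, 2 of them near the minimum, 0 rose and 2 fell. The shares of all probes were 6.34% and 7.32%, and the median of the 15 was -0.0009. Tob1, a repressor of BMP-activated Smads, differed by -0.28 ± 0.06 (SE, limma adjusted p = 0.00414). Ppm1a, a phosphatase that acts on Smads, differed by -0.15 ± 0.05 (adjusted p = 0.0355). Only 1 of 3 Ppm1a probes passed, and the call ended without WT vehicle array 1 or 3 or WT IL-4 array 5, 6 or 7 (adjusted p from 0.0703 to 0.109). It also ended with the trended robust model (0.151) and with only the 2 groups in the fit (0.105). The signal-transducing genes Smad1, Smad5, Smad2, Smad3 and Smad4 differed by 0.12, -0.06, 0.03, 0.05 and -0.09 without passing.

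Of 13 measured target genes of BMP or activin signalling, 4 of them near the minimum, 4 fell and 1 rose. The shares of all probes were 7.32% and 6.34%, and the median of the 13 was -0.06. Smad6, the inhibitory Smad that BMPs induce, averaged 8.27 ± 0.09 in WT IL-4 and 8.60 ± 0.03 in WT vehicle (SD, n = 4 each), a log2 difference of -0.33 ± 0.05 (SE, limma adjusted p = 0.000116, both probes passing). Id1, an inhibitor of helix-loop-helix factors and a direct BMP target, averaged 8.44 ± 0.10 in WT IL-4 and 8.75 ± 0.06 in WT vehicle, a difference of -0.31 ± 0.06 (adjusted p = 0.00256). Its relatives Id3 and Id2, named after their values were seen, differed by -0.20 ± 0.05 and -0.09 ± 0.02 (adjusted p = 0.0094 and 0.00582), with 1 of 2 Id2 probes passing. Msx1, a homeobox gene that BMPs induce in many tissues, went the other way. It averaged 9.33 ± 0.09 in WT IL-4 and 8.26 ± 0.03 in WT vehicle, a difference of 1.07 ± 0.03 (adjusted p = 1.98e-11). The 5 genes of proprotein and chordin processing, 2 of them near the minimum, had a median of -0.01. Among them 0 fell, against 7.32% of all probes, and 1 rose, against 6.34%. This was Bmp1, which despite its name is the protease that cleaves procollagen and chordin, with 11.88 ± 0.13 in WT IL-4 and 10.79 ± 0.08 in WT vehicle. Its difference was 1.09 ± 0.08 (adjusted p = 1.97e-07, all 4 probes passing).

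**Figure D4:**
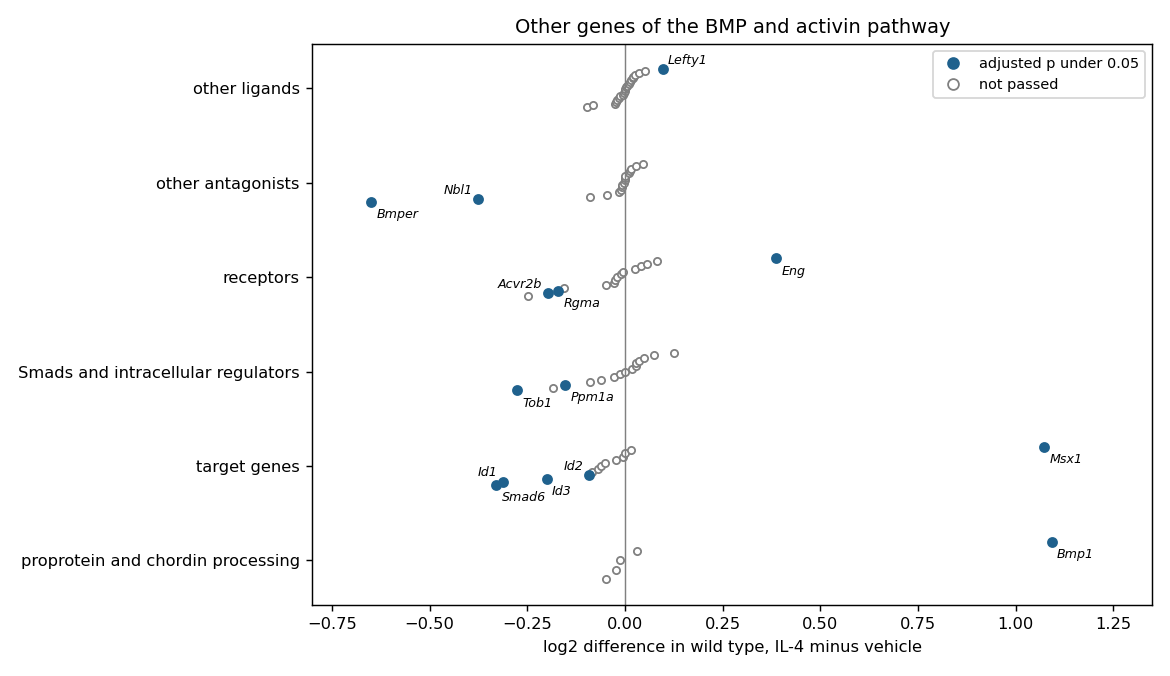
Log2 difference between IL-4 and vehicle in wild-type cells for 87 other genes of the BMP and activin pathway, by list. Filled points passed an adjusted p of 0.05 over all probes and are named. The target genes Id1, Id2, Id3 and Smad6 are lower with IL-4, while Msx1 and Bmp1 are higher, by 1.07 and 1.09.

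The interaction, as wild type minus knockout, was past the threshold for Msx1 (1.03 ± 0.05, SE, limma adjusted p = 3.79e-09), Bmp1 (1.13 ± 0.11, adjusted p = 1.22e-05), Acvr2b (-0.20 ± 0.04, 0.00279), Eng (0.41 ± 0.09, 0.0086), Smad6 (-0.29 ± 0.06, 0.00926, 1 of 2 probes), Bmper (-0.81 ± 0.20, 0.0204) and Id3 (-0.24 ± 0.07, 0.0369). Without KO vehicle arrays 2 and 3 the calls of Eng, Bmper and Id3 ended (adjusted p = 0.059, 0.0921 and 0.0903). That of Id3 also ended on leaving out any 1 of 11 arrays (adjusted p from 0.0544 to 0.0735), while those of Msx1, Bmp1, Acvr2b and Smad6 held with both arrays left out. Among the pathway genes called in wild type, the interaction of Id1, Id2, Nbl1, Tob1, Rgma, Lefty1 and Ppm1a did not pass (adjusted p from 0.0643 to 0.491).

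Between genotypes under vehicle, 2 of the 87 genes were higher in the knockout and 1 was lower, against 1.18% and 1.5% of all probes. Nbl1 averaged 10.70 ± 0.19 in KO vehicle and 10.24 ± 0.12 in WT vehicle (SD, n = 4 each), a log2 difference of 0.45 ± 0.08 (SE, limma adjusted p = 0.0101), and Bmp1 was 0.35 ± 0.08 higher (adjusted p = 0.036, 1 of 4 probes). Both calls ended without KO vehicle arrays 2 and 3 (adjusted p = 0.107 and 0.232) and with only the 2 groups in the fit (0.0574 and 0.075), and that of Bmp1 also ended without KO vehicle array 1, 2 or 3 or WT vehicle array 1, 2 or 4 (from 0.0714 to 0.109). Htra1, a secreted serine protease, was lower by -0.42 ± 0.06 (adjusted p = 0.00137, 1 of 2 probes). Under IL-4, in the comparison that shares the WT IL-4 arrays, 18 of 87 were higher and 6 lower in the knockout. The shares of all probes were 7.7% higher and 7.2% lower. The target genes Id1 and Smad6 were higher by 0.43 ± 0.06 and 0.32 ± 0.05 (adjusted p = 0.000146 and 0.000142) and Msx1 was lower, at -1.11 ± 0.03 (1.08e-11). Bmper and Nbl1 were higher by 1.02 ± 0.14 and 0.73 ± 0.08 (0.00012 and 1.89e-05). The co-receptor Tgfbr3 was higher by 0.52 ± 0.11 (0.00521), Eng was lower, at -0.34 ± 0.06 (0.00159), and Smad5 was higher by 0.36 ± 0.06 (0.000876, 1 of 3 probes). Gdf10 was higher by 0.21 ± 0.04 (0.00177), Lefty1 was lower, at -0.16 ± 0.03 (0.000528), and Bmp1 was lower, at -0.78 ± 0.08 (6.36e-06).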

How the data were processed

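RNA of plated cells was purified on RNeasy columns, labelled with Cy3 and hybridised to Illumina MouseRef-8 v2.0 arrays, per the labels' protocols. The authors deposited 1 log2-scale intensity per probe for each of 16 arrays. After sorting, arrays differ from one another by no more than 0.00059, as quantile normalization would leave them. The sources used here give no software, background correction or log base, and detection calls were not used. Log2 was inferred from the range, 7.72 to 14.77. Such scaling hides any shift in the total RNA of a cell.

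Probes were named through the platform annotation (23978 with 1 symbol, 0 with several, 1719 unnamed here), and 23962 matched RefSeq (GRCm38.p6) by Entrez number. With R 4.3.3 and limma 3.58.1, a model with 1 mean for each group (residual degrees of freedom 12, all 16 arrays) was fitted without filter, and 5 contrasts were adjusted by Benjamini-Hochberg over 25697 probes (two-sided, threshold 0.05), so each adjusted p-value here was computed from the deposited values. The code was tested on simulated data. The number of arrays limits the precision. The members, the pathway and marker lists and the tests were chosen with earlier results of these data known. Named pathway genes were up to 2 rises and 2 falls per list and contrast among those past the threshold. Others, such as Nog, Chrd, Mstn, Bmpr1a, Acvr1, the signal-transducing Smads, Id2 and Id3, were named outside that rule. Titles number the replicates 1 to 4 in 3 groups. Deviations of same-numbered arrays correlated at -0.217 to 0.137 (KO IL-4 with KO vehicle) and -0.078 to 0.0483 (KO with WT vehicle), so the numbers were not taken as pairs. With 13810 of 25697 probes near the minimum, a low correlation over all probes does not exclude that same-numbered arrays share a mouse. Alternatives were another centring, a filter on dim probes, a trended robust prior, array weights, a lowered background, a threshold of 0.01, the compared groups alone, the replicate block and each array left out. Figures used matplotlib 3.10.9.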

Additional observations from a re-analysis of the deposited data

Results flagged for a closer look

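The IL-4 response of 2 members differed between the genotypes by the interaction test. The difference, wild type minus knockout, was -1.11 for Bmp4 and -0.70 for Fst (limma adjusted p = 4.41e-06 and 0.000555), and all 4 WT IL-4 arrays lay below all arrays of the other 3 groups for both genes.

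An array far from the others of its group was found in 2 of 32 member and group combinations, where chance alone gives about 1 in 20. Fst on WT vehicle array 1 stood at 9.21, against 9.04 to 9.05 on the other 3 arrays, a gap of 0.914 of the group's range. Grem1 on WT vehicle array 4 stood at 7.85, against 7.93 on the other 3, a gap of 0.939 of the range.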

How the results depend on the processing

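Over the 5 comparisons, the calls of Bmp4 and Fst in the wild-type response, the interaction and the genotype difference under IL-4 held in all alternatives run, with log2 differences of -1.42 to -1.04 for Bmp4 and -1.14 to -0.81 for Fst in wild type. The most negative values came with linear values lowered by 100 units. No result of a member changed sign as a called result. The replicate block, whose numbers did not deviate together over all probes although Bmp4 had the same order of numbers in all 3 groups that share them, left 0 calls in the knockout response and 354 of all probes for the genotypes under vehicle, against 690. With it Fstl1 lost its call there (adjusted p = 0.0978) and Bmp4 gained one (0.0388), so 1 member was called as before. Under vehicle the number of members called was 2 with dim probes left out, 3 with the trended robust prior, 0 at an adjusted p of 0.01 and 0 without KO vehicle arrays 2 and 3, an alternative chosen after seeing the data, and the probes called were 245 at 0.01 and 385 without those arrays. The interaction gave 1266 probes at 0.01, and the trended prior called 1 probe in the knockout response, against 0. The cause of these changes was not tested, apart from the stricter threshold and the fewer arrays. With single arrays left out, member calls ranged from 2 to 3 in the wild-type response, 0 to 0 in the knockout, 2 to 2 for the interaction, 1 to 2 for the genotypes under vehicle and 3 to 3 under IL-4. Calls over all probes ranged from 3002 to 3511, 0 to 0, 1846 to 2236, 426 to 591 and 3227 to 3676 in the same order, with 447, 426 and 456 under vehicle without WT vehicle array 1, 2 or 4. Other pathway genes called in wild type ranged from 3 to 5 higher and 8 to 11 lower. A mean over several probes could not be taken because each member had 1 probe, and a block under IL-4 or in wild type could not be fitted because those groups share no number. Signal near the array minimum limits what can be seen of Bmp2, Bmp6, Grem1 and Inhbb.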

Other observations

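KO vehicle arrays 2 and 3, which lie apart on the third principal component, stood at one end of their group for several members. Fst was 9.46 and 9.50 on them, against 9.28 and 9.08 on arrays 1 and 4. Fstl1 was 11.43 and 11.46, against 11.27 and 11.22, and Inhba was 8.47 and 8.51, against 8.39 and 8.32. Inhbb was 7.88 and 7.85, against 7.96 and 7.95. Bmp4 showed no such split, with 9.11 and 9.28, against 9.25 and 8.99. What sets these arrays apart was not tested.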
